A study of Mus musculus with 21 samples.

Results

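The genes described here are Trp53, the mouse gene of the transcription factor p53, and 30 genes that are listed as its targets. They are 31 of the 55536 Ensembl gene IDs in a table of RNA counts from mouse mammary organoids, and each was found by its symbol through GENCODE vM21. The list was taken as given and no cut on the levels of its members was applied. Earlier results of these data were known when it was chosen. All 31 had enough counts to be tested in every comparison.

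The organoids were grown from primary mammary epithelium and carried neuT, an oncogene derived from rat Erbb2, whose product is a receptor tyrosine kinase that signals without a ligand. They were homozygous for the ATLD1 allele of Mre11 (ATLD) or wild type for it (WT). The allele is named after ataxia-telangiectasia-like disorder, and Mre11 is the nuclease of the complex that binds DNA double-strand breaks and helps to activate the kinase ATM. Both genotypes were sampled at day 0, before neuT was switched on, and at day 14 and day 28 after that. Polyadenylated RNA of each of these 6 groups was sequenced in 3 libraries. The libraries number 21 because the ATLD run also took in replicate 1 of every WT day once more. The labels do not say how neuT was switched on, nor whether replicates came from separate animals or cultures, and the spread behind the p-values could therefore be technical. No culture in which neuT stayed off until day 14 or day 28 is among the 21 libraries. The effect of the oncogene and that of time in culture therefore cannot be told apart.

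p53 is held at a low level by the ubiquitin ligase Mdm2 and its relative Mdm4. When DNA is damaged or an oncogene drives replication too hard, kinases such as ATM and ATR free it from them, largely by changing the protein and not its RNA. It then switches on genes that halt the cell cycle, start apoptosis, feed DNA repair and shut p53 off again. In mammary epithelium this pathway is one of the barriers that an activated oncogene meets.

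Levels are counts per 1e+06 counts (CPM) with TMM scaling over the 21 libraries, and each mean ± SD covers the 3 original libraries of its group. A fold change is given on the log2 scale with an SE derived from the F statistic of edgeR, and a gene was called where its p, adjusted over all genes tested, was under 0.05. Total counts ran between 46331204 and 51757203 in the ATLD libraries and between 30905703 and 50879106 in the original WT libraries. Mre11a, the mouse gene of Mre11, was lower in every ATLD library (14.1 to 17.1 CPM) than in every WT library (42.2 to 58.6 CPM). Erbb2 was called in no comparison of days, and it was lower in ATLD than in WT at day 14 (-0.66 ± 0.27) and day 28 (-0.74 ± 0.28). It is unknown if rat neuT reads contribute to its counts. In 3 original WT libraries, namely day 14 replicates 1 and 3 and day 28 replicate 2, GC-rich genes were under-represented. Relative to the mean of their genotype, their genes of highest GC content stood -1.03 to -0.77 (log2) from those of lowest GC content, against -0.37 to 0.69 in the other 18.

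Binding sites of p53 near these genes can be looked for in the reference. RefSeq windows of 250 bases before an annotated start (build GRCm38.p6) were at hand for 23 of the 31 genes, with 34 windows in all. A p53 half-site, 10 bases matching the consensus of the factor, stood in 10 of the 34 windows, for 10 genes, against 7.13% of all 32851 windows. A full element of 20 bases, made of paired half-sites with at most 1 mismatch to the consensus, was found in 15 of all windows (0.046%), and among the members in that of Cdkn1a. The consensus is a palindrome, so both strands were covered. The stretches of 5 genes are shown because each holds a half-site and the RNA of these genes is described below. Capitals mark the half-sites and, in Cdkn1a, also the full element.
Cdkn1a: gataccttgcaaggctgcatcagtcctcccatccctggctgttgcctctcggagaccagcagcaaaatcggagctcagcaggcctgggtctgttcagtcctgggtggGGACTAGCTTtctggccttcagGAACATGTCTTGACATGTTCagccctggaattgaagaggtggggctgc
Trp53: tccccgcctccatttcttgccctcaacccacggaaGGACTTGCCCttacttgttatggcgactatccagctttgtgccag
Mdm2: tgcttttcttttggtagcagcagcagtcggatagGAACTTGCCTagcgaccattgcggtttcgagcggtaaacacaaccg
Ccng1: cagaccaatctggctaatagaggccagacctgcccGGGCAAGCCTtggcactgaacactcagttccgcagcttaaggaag
Bax: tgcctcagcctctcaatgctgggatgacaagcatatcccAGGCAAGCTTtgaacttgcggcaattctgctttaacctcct
The stretch of Cdkn1a is chr17:29090799-29090975 on the plus strand, and its element begins 51 bases before the upstream of the annotated starts, which is 2841 bases before the downstream one. Those of the others are chr11:69580249-69580328 (plus strand) for Trp53, chr10:117710899-117710978 (minus strand) for Mdm2, chr11:40755427-40755506 (minus strand) for Ccng1 and chr7:45467059-45467138 (minus strand) for Bax. A match describes the letters and does not show that p53 was bound there. The best known elements of Mdm2 lie in its first intron, outside such a window.

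Trp53 (ENSMUSG00000059552, mm10 chromosome 11, 69580359 to 69591873) was called in no comparison of days. It was at 179, 198 and 234 CPM in the ATLD libraries of day 0, against 114, 125 and 125 CPM in the original WT libraries. At day 14 the ATLD libraries had 173, 222 and 202 CPM, against 90.1, 130 and 88.9 CPM in WT. At day 28 they had 228, 203 and 180 CPM, against 129, 101 and 139 CPM in WT. At each day every ATLD library lay above every WT library, the resequenced WT runs (148, 150 and 150 CPM) included. The excess of ATLD over WT was 0.40 ± 0.17, 0.53 ± 0.17 and 0.37 ± 0.17 on the log2 scale in day order, and was called at day 14 only (adjusted p = 0.011, against 0.060 and 0.068 at day 0 and day 28). Among the libraries sequenced together it was 0.51, 0.48 and 0.48 and was called at no day (adjusted p = 0.067 to 0.074). With an offset for GC content it was 0.59, 0.67 and 0.56 and was called at all 3 days. Its changes since day 0 were -0.03 ± 0.16 and -0.00 ± 0.16 in ATLD and -0.23 ± 0.16 and 0.02 ± 0.16 in WT, where that of day 14 was 0.071 without the 3 libraries poor in GC-rich genes.

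**Figure D1:**
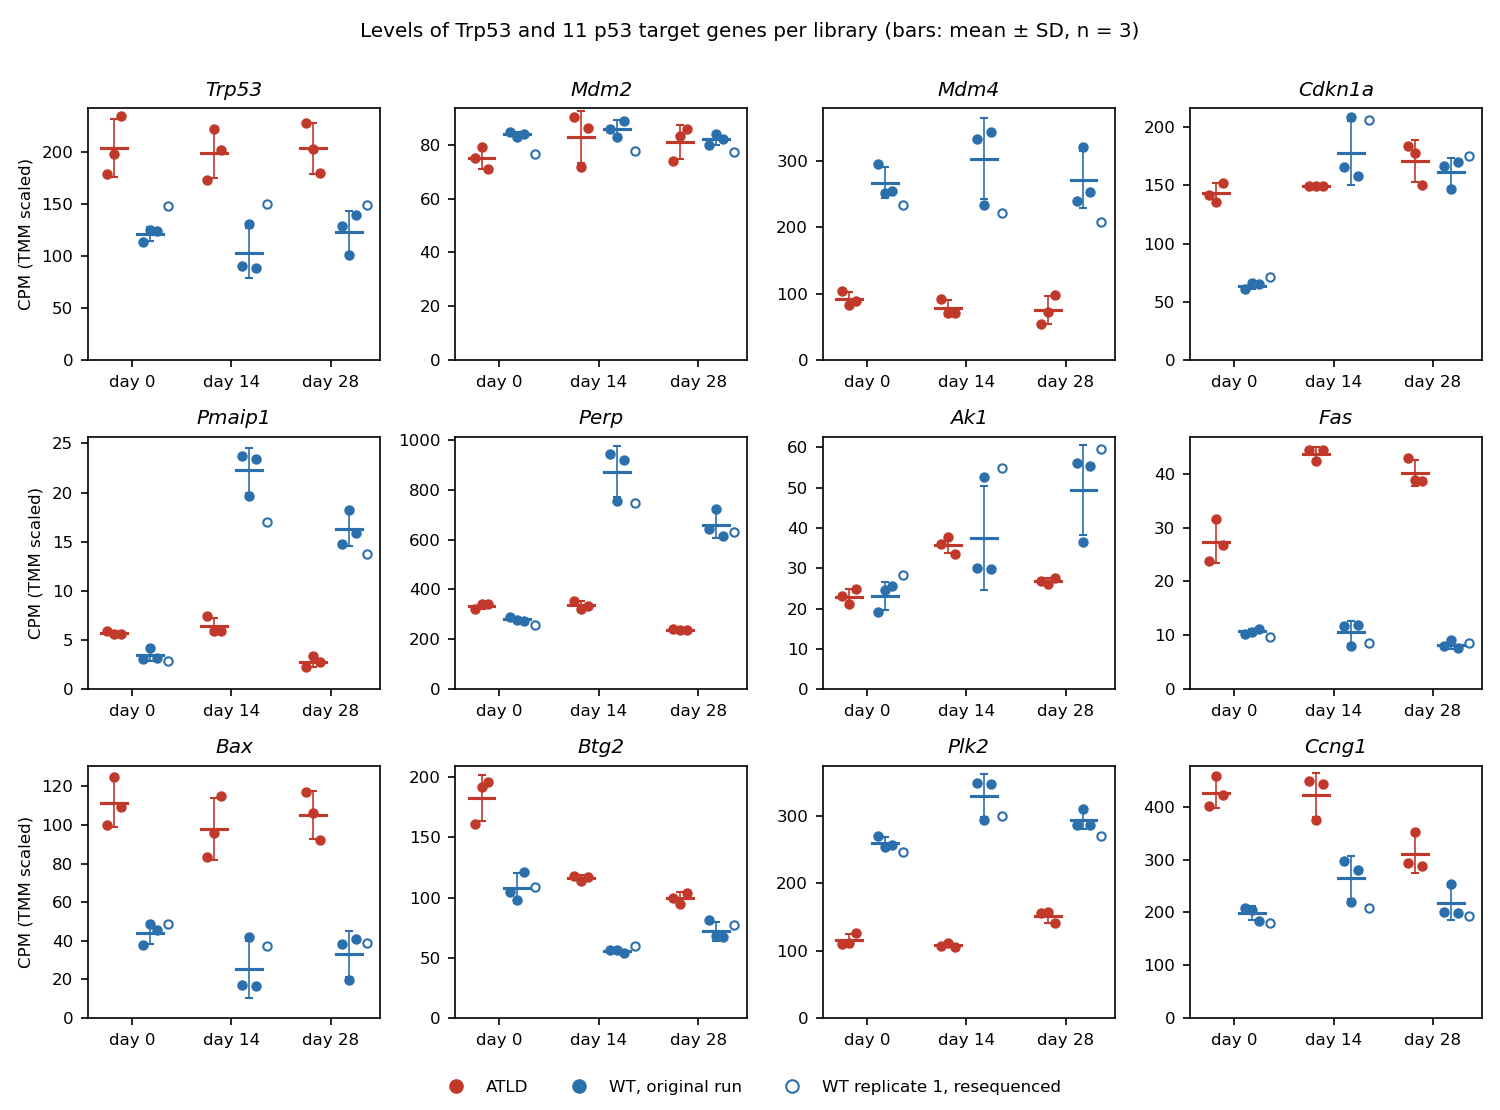
Level in CPM (TMM scaled) of Trp53 and 11 targets in each library, by day; each dot is a library, bars give the mean ± SD of the 3 original libraries, and open circles are the resequenced runs of WT replicate 1. Cdkn1a, Pmaip1 and Perp stand far higher in the WT libraries of day 14 and day 28 than in those of day 0, while in ATLD they do not, and Mdm2 stays between 70.8 and 90.3 CPM throughout.

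The share of targets called was near that of all genes in the comparisons of days. In ATLD, 2 of the 31 were higher and 2 lower at day 14 than at day 0, in a comparison that called 11.7% of all 18684 genes (5.18% higher, 6.49% lower). At day 28 against day 0, 2 were higher and 7 lower in ATLD (29.8% of all genes called, 14.1% higher and 15.7% lower), and with an offset for GC content the split was 6 higher and 9 lower. In WT, 8 were higher and 2 lower at day 14 than at day 0 (30.3% of all genes called, 15.2% higher and 15.1% lower), and 10 higher and 5 lower with the GC offset. At day 28 against day 0, 5 were higher and 3 lower in WT, where 24.7% of all genes were called (12.3% higher, 12.4% lower), and 5 in all were called without WT day 28 replicate 3. The median log2 change of the 31 in ATLD was -0.09 at day 14 and -0.06 at day 28, against -0.03 and -0.02 over all genes. In WT it was 0.06 and 0.03, against 0.01 and 0.02 over all genes. In ATLD Fas was called higher at both later days (3.61% of all genes) and Btg2 and Gdf15 lower (5.07%). In WT Cdkn1a, Pmaip1, Perp and Ak1 were called higher at both, as were 10.3% of all genes, and Btg2 and Gdf15 lower, as were 10.9%. The other 4 members higher in WT at day 14 were Ccng1 (0.42 ± 0.13), Plk2 (0.34 ± 0.09), Apaf1 (0.46 ± 0.15) and Polk (0.43 ± 0.13). Without the 3 libraries poor in GC-rich genes these 4 had changes of 0.10, 0.14, 0.23 and 0.12, and none of them was called. All changes since day 0 of a genotype share its day 0 libraries. The shares of all genes here are those without the GC offset and with no library left out, and none is given for the other settings.

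Between day 28 and day 14, ATLD had 2 higher and 4 lower members (17.3% of all genes called, 8.25% higher and 9.05% lower). With median-of-ratios scaling it was 1 higher and 4 lower, and 3 in all were called without ATLD day 14 replicate 1 or replicate 3. Pmaip1 (-1.21 ± 0.16), Perp (-0.49 ± 0.10), Ccng1 (-0.44 ± 0.13) and Tnfrsf10b (-0.30 ± 0.10) were lower, and Plk2 (0.48 ± 0.09) and Ercc5 (0.33 ± 0.10) were higher. WT had 0 members called between those days, where edgeR called 169 genes (0.905%) and gave 1851 an unadjusted p under 0.05. DESeq2 called 1 member there. Without WT day 14 replicate 2, which leaves the 2 GC-poor libraries of that day, 15 members were called, and without WT day 28 replicate 2 it was 1. The shares of all genes called under these other settings are not given here.

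Between the genotypes, 15, 21 and 17 of the 31 were called at day 0, day 14 and day 28. ATLD had 11 members higher and 4 lower than WT at day 0 (55.6% of 18844 genes called, 26.1% higher and 29.5% lower), and 19 higher and 4 lower with the GC offset. At day 14 it had 11 higher and 10 lower (65.1% called, 30.1% higher and 35% lower). At day 28 it had 8 higher and 9 lower (64.2% called, 29.3% higher and 34.9% lower). With the GC offset the day 28 split became 17 higher and 8 lower. The shares of all genes are those without the offset, and none with it is given here. The splits with it are thus not set against a share and do not show how the members compare with genes at large. The median ATLD minus WT difference of the 31 was 0.26, -0.06 and 0.09 at day 0, day 14 and day 28, against -0.04, -0.07 and -0.05 over all genes. Called higher at all 3 days were Ccng1, Btg2, Bax, Ei24, Fas, Eda2r and Gdf15, where 16.1% of all genes were. Called lower at all 3 were Mdm4, Plk2, Plk3 and Ddb2, where 20.6% of all genes were. Mdm2, Ppm1d, Trp53inp1, Zmat3, Bbc3, Sesn2 and Xpc were called in no comparison.

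**Figure D2:**
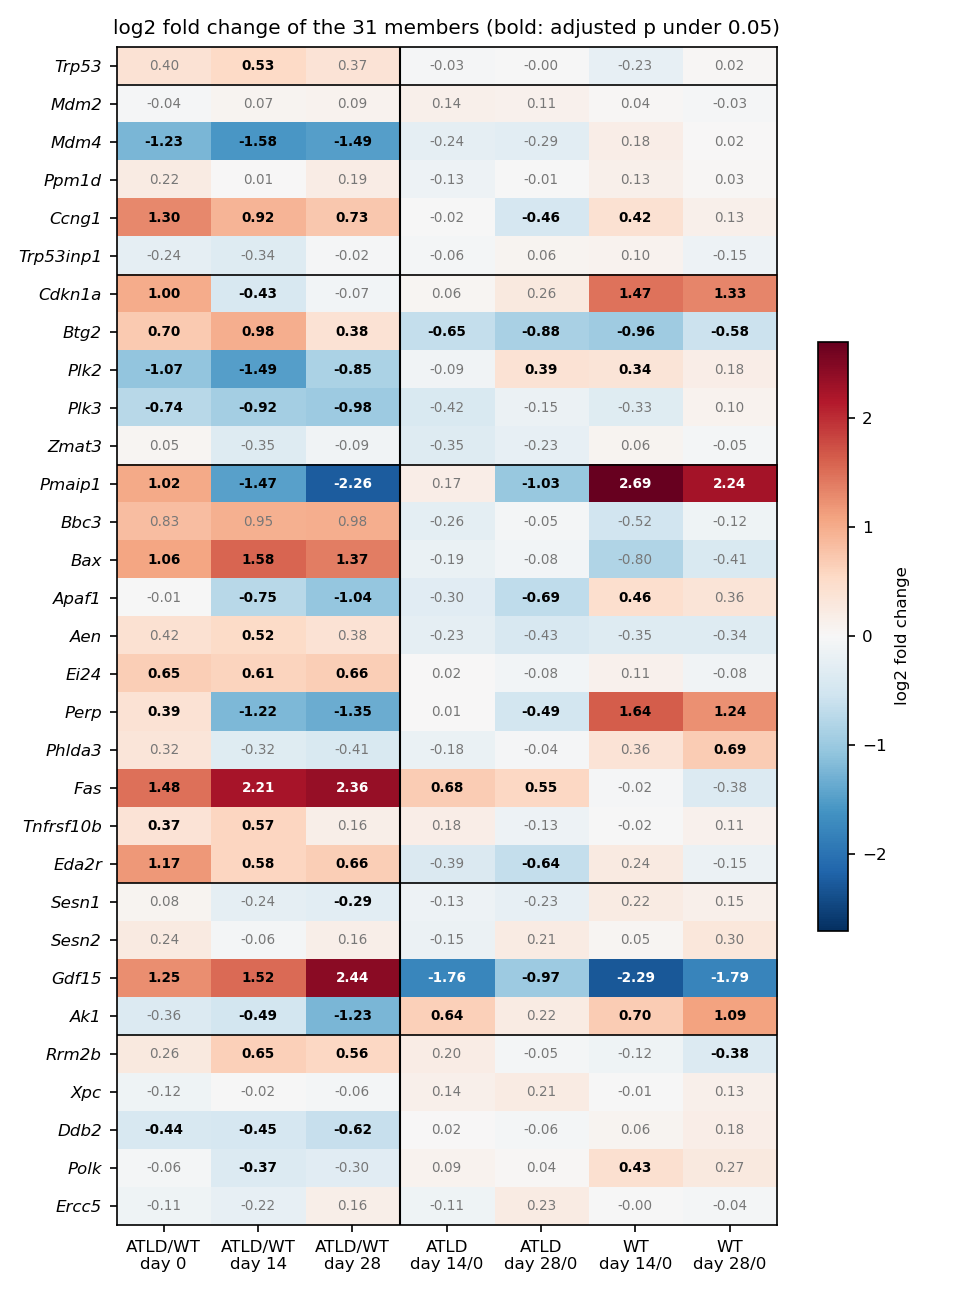
log2 fold change of the 31 genes (rows, by role) in the 3 ATLD against WT comparisons and the 4 changes since day 0 (columns); red is higher, blue lower, and bold numbers have an adjusted p under 0.05. In the WT column of day 14 the rises of Pmaip1 (2.69), Perp (1.64) and Cdkn1a (1.47) stand out, and Mdm2 is near 0 in every column.

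The growth arrest genes include the target by which p53 activity is most often read. Cdkn1a encodes p21, the inhibitor of cyclin-dependent kinases (ENSMUSG00000023067, chromosome 17, 29090976 to 29100727). In ATLD its level was 141, 136 and 152 CPM at day 0, 149, 149 and 149 CPM at day 14, and 184, 178 and 150 CPM at day 28. In WT the 3 original libraries had 60.9, 66.3 and 65.4 CPM at day 0, 166, 209 and 158 CPM at day 14, and 166, 147 and 170 CPM at day 28. The resequenced WT runs had 71.7, 206 and 175 CPM, so the day 0 runs lay well below all later ones in either batch. At day 0 every ATLD library lay above every WT library. At day 14 every ATLD library lay below every WT library, and at day 28 the groups overlapped.

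Cdkn1a was not called against day 0 in ATLD, with changes of 0.06 ± 0.11 at day 14 and 0.26 ± 0.11 at day 28 (adjusted p = 0.84 and 0.093). In WT the level exceeded that of day 0 by 1.47 ± 0.11 and 1.33 ± 0.11 at those days, with adjusted p = 1.77e-08 and 7.71e-08. The difference between the genotypes in the change was -1.41 ± 0.16 to day 14 (adjusted p = 2.63e-06) and -1.07 ± 0.16 to day 28 (adjusted p = 4.62e-05). The ATLD minus WT difference was 1.0 ± 0.12 at day 0 and -0.43 ± 0.11 at day 14, both called, and -0.07 ± 0.12 at day 28 (adjusted p = 0.62). Without the 3 libraries poor in GC-rich genes, where a single WT library stands for day 14 and is assumed to vary like the others, the WT change was 1.67 at day 14 and 1.36 at day 28.

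Btg2, an antiproliferative gene that p53 and growth signals both induce, fell in both genotypes. It was at 161, 192 and 196 CPM in ATLD at day 0, 118, 114 and 117 CPM at day 14, and 99.8, 94.3 and 104 CPM at day 28. In WT it was at 105, 97.6 and 122 CPM, then 56.2, 56.8 and 53.8 CPM, then 81.2, 67.8 and 67.2 CPM. No library of a later day reached any day 0 library of its genotype. The changes since day 0 were -0.65 ± 0.11 and -0.88 ± 0.11 in ATLD and -0.96 ± 0.11 and -0.58 ± 0.11 in WT, all called. ATLD exceeded WT by 0.70 ± 0.11, 0.98 ± 0.11 and 0.38 ± 0.11 at the 3 days.

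The polo-like kinases Plk2 and Plk3, which respond to stress and act around centrosomes and checkpoints, were lower in ATLD. Plk2 was at 109, 111 and 125 CPM in ATLD at day 0, against 269, 254 and 256 CPM in WT. Over all 3 days it lay between 105 and 157 CPM in the ATLD libraries and between 246 and 349 CPM in the WT libraries, resequenced runs included. The difference of ATLD from WT was -1.07 ± 0.10, -1.49 ± 0.10 and -0.85 ± 0.10. Within ATLD, Plk2 was higher at day 28 than at day 0 (0.39 ± 0.09) and than at day 14 (0.48 ± 0.09). Plk3 was low, between 4.50 and 12.5 CPM in the original libraries, and its ATLD minus WT differences were -0.74 ± 0.23, -0.92 ± 0.23 and -0.98 ± 0.23. The RNA-binding gene Zmat3 was called nowhere.

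Since p21 is known to silence cell cycle genes through the DREAM complex and the retinoblastoma proteins, 20 genes of that kind were counted beside it. In ATLD all 20 were lower at day 14 (median -0.86) and all 20 at day 28 (median -1.69) than at day 0, where 6.49% and 15.7% of all genes were and Cdkn1a was not called. In WT 0 of 20 were called at day 14, where 15.2% of all genes were higher and 15.1% lower. At day 28, 1 of the 20, Ccna2 at -0.40 ± 0.13, was lower, as were 12.4% of all genes. Cdkn1a was called higher in WT at both days. At day 0, where Cdkn1a was higher in ATLD than in WT, so were 13 of the 20, and 0 were lower (26.1% and 29.5% of all genes). ATLD had 1 higher and 5 lower than WT at day 14 (30.1% and 35%). At day 28 it had 0 higher and 19 lower (29.3% and 34.9%). The genotypes differed in the change to day 28 for 20 of 20, all in the direction of a stronger fall in ATLD, as it did for 14% of all genes. Their summed level ran from 2087 to 2428 CPM at day 0, 1169 to 1323 CPM at day 14 and 595.5 to 732 CPM at day 28 in ATLD. In the original WT libraries it was 1540 to 1777, 1542 to 1639 and 1396 to 1631 CPM, and the resequenced runs had 1668, 1417 and 1386 CPM. Mki67, the marker of cycling cells, was at 389 ± 58.3, 196 ± 38.2 and 95.8 ± 6.09 CPM in ATLD and at 388 ± 35.1, 331 ± 44.0 and 315 ± 76.0 CPM in WT (SD, n = 3). In bulk RNA, fewer cycling cells and less of these RNAs per cell cannot be told apart.

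**Figure D3:**
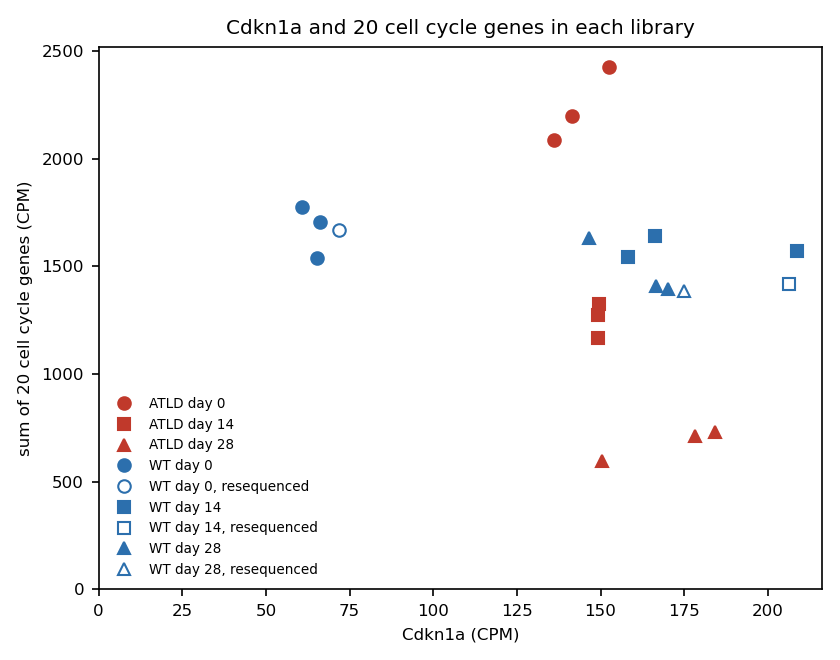
Summed level of 20 cell cycle genes (CPM) against the level of Cdkn1a (CPM) in each library, by genotype and day; open symbols are resequenced WT runs. Along the days ATLD moves down the plot, with sums of 595.5 to 732 CPM at day 28, against 2087 to 2428 CPM at day 0, while WT moves to the right, with Cdkn1a at 147 to 170 CPM in the original runs of day 28, against 60.9 to 66.3 CPM in those of day 0.

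Among the cell death genes, Pmaip1 and Perp were called higher in WT at both later days. Pmaip1 encodes Noxa, a BH3-only protein that neutralises the survival factor Mcl1 (ENSMUSG00000024521, chromosome 18, 66458533 to 66465565). Its ATLD libraries had 5.96, 5.57 and 5.61 CPM at day 0, 7.41, 5.95 and 5.95 CPM at day 14, and 2.25, 3.35 and 2.75 CPM at day 28. Its WT libraries had 3.04, 4.15 and 3.22 CPM at day 0, 23.7, 19.6 and 23.4 CPM at day 14, and 14.8, 18.3 and 15.9 CPM at day 28. ATLD was thus above every WT library at day 0 and below every one at the later days.

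The change of Pmaip1 in ATLD was 0.17 ± 0.16 at day 14, which was not called, and -1.03 ± 0.16 at day 28, which was. In WT it was 2.69 ± 0.16 at day 14 and 2.24 ± 0.16 at day 28, both called. The genotypes differed in the change by -2.52 ± 0.22 to day 14 (adjusted p = 1.79e-07) and by -3.27 ± 0.23 to day 28 (adjusted p = 9.88e-09). ATLD minus WT was 1.02 ± 0.17, -1.47 ± 0.16 and -2.26 ± 0.17 at the 3 days, each called.

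Perp, a tetraspan protein of desmosomes that p63 as well as p53 is known to switch on, followed a like course. On a scale of CPM per kilobase of transcript it had the highest mean level of the 31 over the 18 original libraries, at 232 CPM per kilobase, ahead of Ccng1 at 87.5. ATLD had 321, 341 and 342 CPM of it at day 0, 353, 322 and 334 CPM at day 14, and 240, 238 and 238 CPM at day 28. WT had 291, 278 and 272 CPM at day 0, 942, 756 and 921 CPM at day 14, and 641, 721 and 616 CPM at day 28. The later WT libraries exceeded all others by a wide margin, and those of ATLD at day 28 were the lowest. The changes since day 0 were 0.01 ± 0.10 and -0.49 ± 0.10 in ATLD, the second called, and 1.64 ± 0.10 and 1.24 ± 0.10 in WT, both called. The genotypes differed in them by -1.63 ± 0.14 and -1.72 ± 0.14. Trp63, the gene of p63, was at 67.4 ± 4.32, 44.3 ± 9.62 and 43.6 ± 7.71 CPM in ATLD and at 125 ± 2.71, 236 ± 22.7 and 197 ± 4.58 CPM in WT (SD, n = 3), and its part in the result was not tested.

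Fas, the receptor of the death ligand FasL, went the other way. ATLD had 23.8, 31.6 and 26.7 CPM at day 0, 44.4, 42.3 and 44.5 CPM at day 14, and 42.9, 38.8 and 38.6 CPM at day 28. WT had 10.3, 10.6 and 11.2 CPM, then 11.7, 8.08 and 11.8 CPM, then 7.96, 9.12 and 7.64 CPM. The genotypes did not overlap at any day, and within ATLD the later libraries all lay above day 0. It was higher than at day 0 by 0.68 ± 0.14 and 0.55 ± 0.14 in ATLD, both called. In WT the changes were -0.02 ± 0.14 and -0.38 ± 0.14, neither called. Its excess in ATLD over WT was 1.48 ± 0.15, 2.21 ± 0.16 and 2.36 ± 0.15.

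Bax, the effector that perforates mitochondria, was also higher in ATLD at all 3 days. It was at 99.9, 125 and 109 CPM in ATLD at day 0, against 37.7, 48.6 and 45.6 CPM in WT. ATLD had 83.2, 95.8 and 115 CPM at day 14, against 17.1, 42.0 and 16.5 CPM in WT. The lowest ATLD library of any day exceeded the highest WT library. That excess was 1.06 ± 0.33, 1.58 ± 0.33 and 1.37 ± 0.33, all called. The WT values moved with the GC trend, since the culture of WT day 14 replicate 1 gave 37.2 CPM when resequenced, against 17.1 CPM in the original run. Bbc3, which encodes the BH3-only protein Puma and has 65.2% GC, also had lower values in WT, with 12.3 to 21.3 CPM in ATLD and 1.87 to 7.64 CPM in the original WT libraries. It was called at no day (0.83 ± 0.45, 0.95 ± 0.44 and 0.98 ± 0.46), while that WT culture had 9.41 CPM in the resequenced run, against 1.87 CPM in the original run. With the GC offset Bbc3 was called higher in ATLD at all 3 days (1.09, 1.34 and 1.24).

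Apaf1, the core of the apoptosome, was called lower in ATLD at the later days. It was at 30.9, 23.4 and 23.4 CPM in ATLD at day 0, 24.8, 19 and 19.5 CPM at day 14, and 12.5, 17.8 and 17.9 CPM at day 28. WT had 31.2, 30.5 and 30.7 CPM, then 45.2, 37.1 and 44.4 CPM, then 38.0, 42.6 and 37.8 CPM. The groups overlapped at day 0 only. ATLD minus WT was -0.01 ± 0.16, -0.75 ± 0.16 and -1.04 ± 0.16, the last pair called, and the difference in the change to day 28 was -1.05 ± 0.21 (adjusted p = 0.0012).

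The other death genes were called mostly between genotypes. Ei24, an endoplasmic reticulum protein, was higher in ATLD by 0.65 ± 0.11, 0.61 ± 0.12 and 0.66 ± 0.11. Eda2r, a receptor of the tumour necrosis factor family for ectodysplasin A2, was higher in ATLD by 1.17 ± 0.18, 0.58 ± 0.18 and 0.66 ± 0.17, and within ATLD it was lower at day 28 than at day 0 (-0.64 ± 0.16). Tnfrsf10b, the receptor of the death ligand Trail, was higher in ATLD at day 0 (0.37 ± 0.10) and day 14 (0.57 ± 0.10). Aen, a nuclease of apoptotic cells, was called higher in ATLD at day 14 (0.52 ± 0.19). Phlda3, a repressor of Akt, was higher at day 28 than at day 0 in WT (0.69 ± 0.19) and was called in no other comparison. Without the 3 libraries poor in GC-rich genes, however, its change in WT was 0.78 at day 14 and 0.83 at day 28, and the difference between genotypes was called at both days (-0.94 and -0.87).

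**Figure D4:**
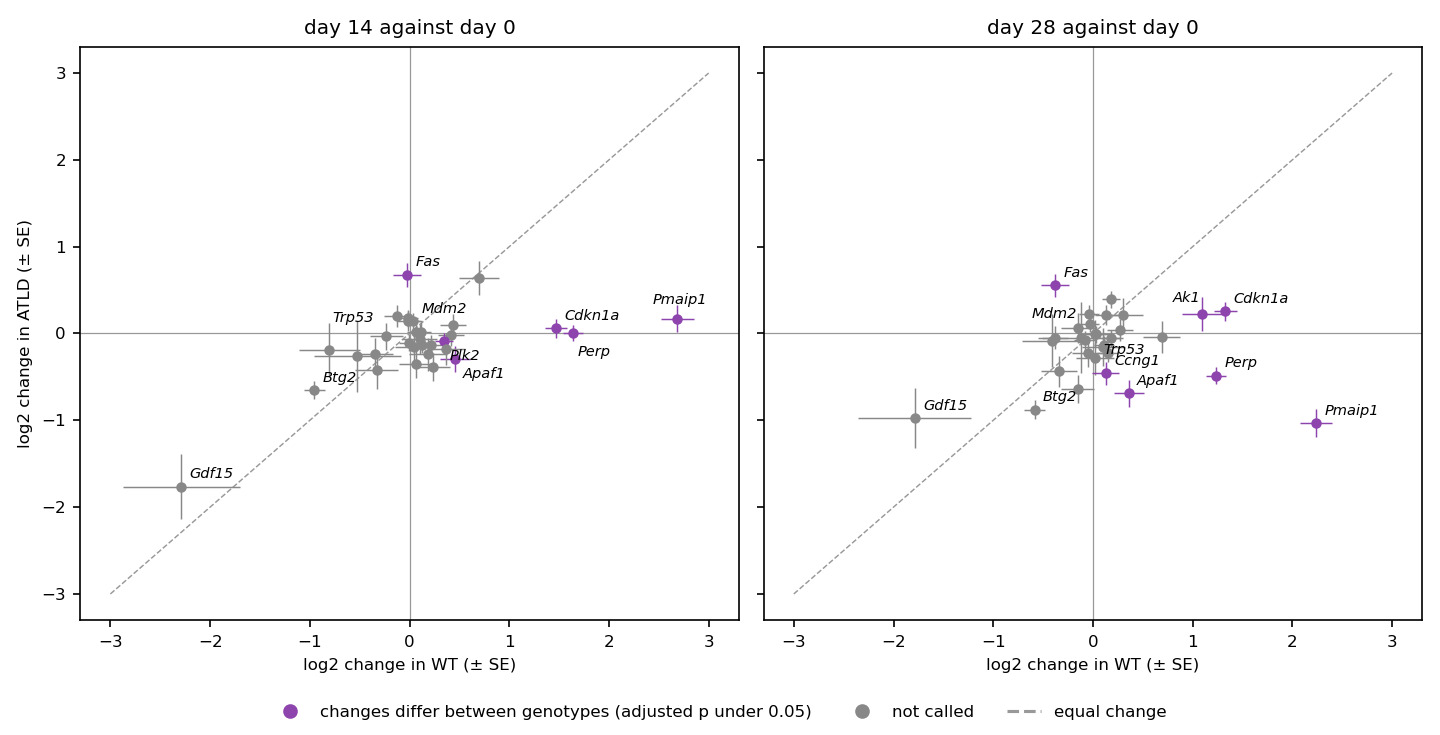
Change since day 0 of each of the 31 genes in ATLD (vertical axis, log2 ± SE) against that in WT (horizontal axis), at day 14 and day 28; purple marks genes whose changes differ between the genotypes at an adjusted p under 0.05, and the dashed line marks equal change. Pmaip1, Perp and Cdkn1a lie far right of the line, Fas lies above it, and Btg2 and Gdf15 lie below 0 in both genotypes; both axes use the day 0 libraries of their own genotype.

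The change with time differed between the genotypes for 1 member higher and 5 lower in ATLD to day 14, where 21.3% of all genes were called (10.8% higher, 10.6% lower). Without WT day 14 replicate 2 it was 12 members in all. To day 28 it was 1 higher and 6 lower, where 27.5% were (13.5% higher, 14% lower). With the GC offset the splits were 3 higher and 8 lower to day 14 and 3 higher and 9 lower to day 28. Fas was the higher member in both. Cdkn1a, Pmaip1, Perp and Apaf1 were lower in both, with Plk2 (-0.43 ± 0.13) to day 14 and with Ccng1 (-0.58 ± 0.19) and Ak1 (-0.87 ± 0.28) to day 28. Both contrasts share the day 0 libraries. The median contrast of the 31 was -0.10 and -0.18, against -0.04 and -0.05 over all genes. The shares of all genes called are those without the offset and with no library left out. None is given for the other settings.

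Of the p53 inhibitors, Mdm4 was called lower in ATLD than in WT and Mdm2 was called in no comparison. Mdm2, both the inhibitor of p53 and its target, was at 75.0, 79.0 and 70.8 CPM in ATLD at day 0, against 84.5, 82.8 and 84.0 CPM in WT. Over all 18 original libraries it ranged from 70.8 to 90.3 CPM. Its changes since day 0 were 0.14 ± 0.09 and 0.11 ± 0.09 in ATLD and 0.04 ± 0.09 and -0.03 ± 0.09 in WT, and ATLD minus WT was -0.04 ± 0.10, 0.07 ± 0.10 and 0.09 ± 0.10. None was called, although with the GC offset ATLD was higher by 0.24 at day 14 and 0.30 at day 28 and both were. Mdm4, which masks the activation domain of p53, was at 104, 83.5 and 89.9 CPM in ATLD at day 0, against 294, 252 and 255 CPM in WT. Over all 3 days it lay between 55.4 and 104 CPM in the ATLD libraries and between 208 and 343 CPM in the WT libraries, resequenced runs included. ATLD minus WT was -1.23 ± 0.20, -1.58 ± 0.21 and -1.49 ± 0.20, and no comparison of days called it.

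Ccng1, the cyclin that guides the phosphatase PP2A to Mdm2, was higher in ATLD. It was at 401, 458 and 422 CPM in ATLD at day 0, against 209, 205 and 184 CPM in WT. At day 28 ATLD had 293, 352 and 288 CPM, against 200, 253 and 198 CPM in WT. The genotypes did not overlap at any day, with the smallest gap at day 28. ATLD minus WT was 1.30 ± 0.14, 0.92 ± 0.14 and 0.73 ± 0.14, and within ATLD it fell by day 28 (-0.46 ± 0.13). The phosphatase Ppm1d, which dephosphorylates p53 and its kinases, and Trp53inp1, which aids p53 phosphorylation, were called nowhere, with ranges of 24.1 to 31 and 108 to 229 CPM.

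In the stress and metabolism group, Gdf15 and Ak1 were called and the sestrins hardly were. Gdf15, a secreted stress cytokine, was near the limit of detection, with 1 to 92 counts in a library. Its level was 1.98, 1.49 and 1.45 CPM in ATLD at day 0, 0.444, 0.428 and 0.576 CPM at day 14, and 1.32, 0.531 and 0.658 CPM at day 28. In WT it was 0.250, 0.588 and 0.360 CPM, then 0.0183, 0.189 and 0.0421 CPM, then 0.116, 0.0822 and 0.127 CPM. Every ATLD library lay above every WT library of its day, and both genotypes were highest at day 0. The fall since day 0 was -1.76 ± 0.37 and -0.97 ± 0.35 in ATLD and -2.29 ± 0.59 and -1.79 ± 0.57 in WT. The ATLD day 28 call was kept under 7 of 13 alternatives and was lost without any 1 ATLD library of day 0, or without day 28 replicate 2 or 3 (-1.46 to -0.73 over the libraries left out, the lowest without day 28 replicate 1). The WT day 28 call was kept under 9 of 15 and was lost without WT day 0 replicate 2 or 3 or any 1 WT library of day 28 (-2.04 to -1.45). Without WT day 14 replicate 2 the WT change at day 14 was -3.59. ATLD minus WT was 1.25, 1.52 and 2.44, and a call was lost at day 0 without replicate 1 of either genotype, at day 14 without ATLD replicate 3 or WT replicate 1, and at day 28 without WT replicate 1 (1.09, 1.13, 1.38, 1.5 and 1.87). The resequenced run of WT day 14 replicate 1 had 0.221 CPM, against 0.0183 CPM in the GC-poor original run, and without the 3 such libraries the WT change at day 14 was -1.06 and not called.

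Ak1, an adenylate kinase of energy balance, was at 23.1, 21 and 24.7 CPM in ATLD at day 0, 36, 37.7 and 33.6 CPM at day 14, and 26.8, 26.0 and 27.5 CPM at day 28. It was called higher in ATLD at day 14 than at day 0 (0.64 ± 0.20), and that call was lost when any one ATLD library of those days was left out. The WT libraries had 19.3, 24.6 and 25.6 CPM at day 0, 30.1, 52.5 and 29.9 CPM at day 14, and 56.2, 36.4 and 55.3 CPM at day 28. The WT level was higher at day 14 (0.70 ± 0.20) and day 28 (1.09 ± 0.20) than at day 0. The low values of the later WT days are those of the 3 libraries poor in GC-rich genes, and without them the changes were 1.15 and 1.24. ATLD minus WT at day 28 was -1.23 ± 0.21. Sesn1, which restrains mTORC1 and oxidants, was lower in ATLD at day 28 (-0.29 ± 0.11), and Sesn2 was called nowhere.

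Of the repair genes, Ddb2, which finds ultraviolet lesions, was called lower in ATLD at all 3 days (-0.44 ± 0.10, -0.45 ± 0.10 and -0.62 ± 0.10), with 13.5 to 15.6 CPM in ATLD and 18.9 to 24.4 CPM in the original WT libraries. It shares 23.8% of its exon bases with Acp2 on the opposite strand, and the strand setting of the counting is not given in the sources used here, so reads of the pair may be mixed. Rrm2b, a ribonucleotide reductase subunit that supplies nucleotides for repair, was higher in ATLD at day 14 (0.65 ± 0.15) and day 28 (0.56 ± 0.15), and in WT it was lower at day 28 than at day 0 (-0.38 ± 0.13). Polk, a polymerase that copies past lesions, was lower in ATLD at day 14 (-0.37 ± 0.14). Ercc5, an excision nuclease, was called once, in ATLD at day 28 against day 14. Xpc, which recognises helix distortions, was between 32.4 and 43.7 CPM everywhere and was called nowhere.

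Beside the members stand 24 genes that act on p53 or belong to its family. ATLD had 7 of them higher and 9 lower than WT at day 0, 7 and 9 at day 14, and 7 and 12 at day 28. These are 66.7%, 66.7% and 79.2% of the 24, against 55.6%, 65.1% and 64.2% of all genes. Since day 0 in ATLD, 1 was higher and 3 lower at day 14, and 1 and 8 at day 28 (16.7% and 37.5% of the 24, against 11.7% and 29.8% of all genes). WT had 3 and 2 at day 14, and 2 and 4 at day 28 (20.8% and 25%, against 30.3% and 24.7%). Trp73, the gene of p73, was higher in WT by 1.0 ± 0.22 and 1.43 ± 0.22. Trp53bp2, which encodes the p53 partner ASPP2, changed by 0.38 ± 0.11 in ATLD at day 14 and by -0.86 ± 0.11 and -0.73 ± 0.11 in WT at day 14 and day 28, all called. Its ATLD level was 169.6 ± 11.13, 220.8 ± 32.45 and 238.3 ± 11.53 CPM at day 0, day 14 and day 28 (SD, n = 3). The damage kinases fell in ATLD by day 28, with Chek1 at -1.65 ± 0.15, Atr at -1.10 ± 0.16, Atm at -1.05 ± 0.20 and Chek2 at -0.71 ± 0.11. Cdkn2a, whose product Arf blocks Mdm2, was at 36.9 ± 6.31 CPM in ATLD and 10.1 ± 1.96 CPM in WT at day 0 (SD, n = 3), and exceeded WT by 1.23 ± 0.44, 1.47 ± 0.44 and 1.35 ± 0.45. The counts of Cdkn2a do not separate Arf from its other product, p16.

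Of 25 further p53 targets 24 could be tested. Since day 0 in ATLD, 2 were higher and 3 lower at day 14, and 4 and 9 at day 28 (20.8% and 54.2% of the 24, against 11.7% and 29.8% of all genes). WT had 2 and 5, then 5 and 6 (29.2% and 45.8%, against 30.3% and 24.7%). ATLD had 8 higher and 3 lower than WT at day 0, 8 and 6 at day 14, and 5 and 7 at day 28 (45.8%, 58.3% and 50%, against 55.6%, 65.1% and 64.2%). Dram1, an autophagy gene, was higher in ATLD at day 14 by 0.74 ± 0.09 and in WT at day 14 and day 28 by 1.81 ± 0.09 and 1.60 ± 0.09. In ATLD its level also stayed above that of day 0 at day 28, with 25.24 ± 0.63, 42.25 ± 3.46 and 36.85 ± 1.39 CPM in day order (SD, n = 3). Gadd45a, a growth arrest gene that also answers other stress, changed by 1.48 ± 0.14 and 1.06 ± 0.13 in ATLD and by -0.78 ± 0.14 and -0.77 ± 0.14 in WT, all called. Its levels were 7.85 ± 0.52, 21.9 ± 1.53 and 16.3 ± 3.23 CPM in ATLD and 7.56 ± 0.54, 4.39 ± 0.20 and 4.45 ± 0.51 CPM in WT (SD, n = 3). Zfp365 and Ptprv fell by day 28 in ATLD, by 2.11 and 1.91 on the log2 scale.

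The RNA of cell type markers moved with genotype and day. In bulk RNA, a change in the cells present and a change in RNA per cell cannot be told apart. The sums given for WT are those of its original libraries unless stated. The summed level of 10 luminal progenitor markers ran from 22320 to 27460, 20740 to 24310 and 41800 to 47050 CPM in ATLD at day 0, day 14 and day 28. In WT it ran from 12530 to 13200, 454.5 to 478.4 and 502.9 to 608.1 CPM, so WT lost most of it at the same days at which Cdkn1a, Pmaip1 and Perp rose. Of the 9 markers tested, all 9 were called lower in WT at both later days. In ATLD 2 were called higher and 2 lower at day 14, and 5 and 2 at day 28. Of all genes in WT, 15.2% were higher and 15.1% lower at day 14, and 12.3% and 12.4% at day 28. In ATLD these shares were 5.18% and 6.49% at day 14, and 14.1% and 15.7% at day 28. The WT shares also stand beside the counts of basal and general epithelial markers below. Between day 0 and day 28 the ATLD mean of Ltf went from 6264 to 11230 CPM, that of Lcn2 from 5360 to 12420 CPM and that of Csn3 from 4890 to 11000 CPM. That of Kit went from 430 to 235 CPM. The 10 basal markers summed to 3834 to 4165, 2560 to 2576 and 2052 to 2269 CPM in ATLD and to 2218 to 2847, 4083 to 10060 and 4711 to 8939 CPM in WT. In WT that sum follows the keratins, since Krt5, Krt14, Krt17 and Trp63 were called higher at both later days, while 6 of the 10 were lower at day 14 and 5 at day 28. Acta2, a contractile gene of myoepithelium, was at 282 ± 13, 10.6 ± 2.34 and 24.0 ± 3.31 CPM in WT at day 0, day 14 and day 28 (SD, n = 3). The 10 general epithelial markers were at 6912 to 9742 CPM in ATLD and 4776 to 11850 CPM in WT, where Krt5 and Krt14 were higher at both later days and 6 others, such as Krt8 and Krt18, were lower. Other cell types were scarce in ATLD and WT, with sums of 11.7 to 31.9 and 19.1 to 57.6 CPM for fibroblasts, 2.26 to 3.55 and 6.97 to 12.6 CPM for leukocytes, 1.78 to 2.48 and 1.85 to 3.69 CPM for endothelial cells and adipocytes, and 28.1 to 36.3 and 13 to 32.7 CPM for lung. Of the 10 leukocyte genes, 9 stayed under 1 CPM in every ATLD library and 8 in every original WT library, at each day. The resequenced WT runs had leukocyte sums of 2.599, 3.291 and 2.859 CPM in day order, within the ATLD range. The original runs of those cultures had 6.965, 8.009 and 8.565 CPM. Lung sums were 19.78, 6.924 and 5.964 CPM in the resequenced and 23.34, 13.84 and 17.87 CPM in the original runs. Fibroblast sums were 52.49, 22.3 and 34.48 CPM against 51.32, 21.08 and 36.72 CPM. The cause of these differences between runs was not tested. The part of these markers in the results on the p53 targets was not tested.

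**Figure D5:**
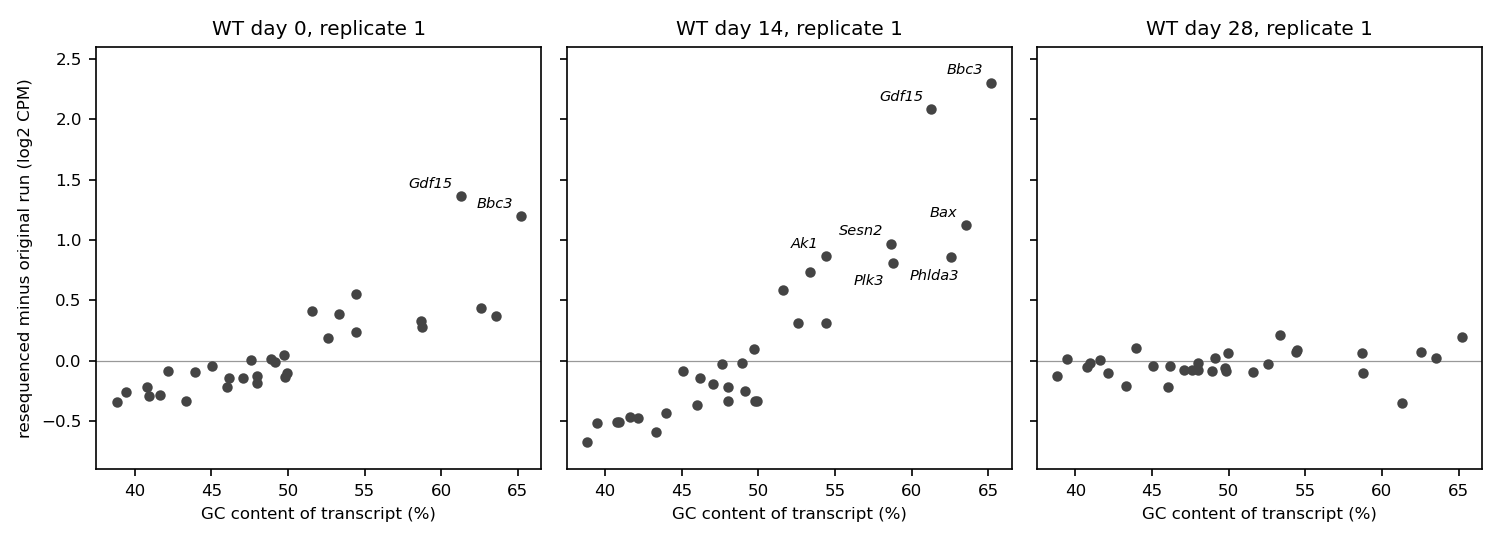
Difference in level between the resequenced and the original run (log2 CPM) of WT replicate 1 of each day, for the 31 genes, against the GC content of the transcript in percent. At day 14 all 11 genes with at least 50% GC are higher in the resequenced run, by up to 2.31 for Bbc3, and 1 of the 20 others is; at day 28 the points stay within 0.35 of 0.

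The pairs of runs show how far a level can move within 1 culture, and it is not stated whether the resequenced run used the same library or a new one. At day 14 the 11 members with at least 50% GC were all higher in the resequenced run of the same culture, with a median of 0.86, and 1 of the 20 others was, with a median of -0.33. At day 0 the counts were 11 of 11 and 3 of 20, and at day 28 they were 7 of 11 and 5 of 20. Cdkn1a moved by 0.24, 0.31 and 0.07 between runs, Pmaip1 by -0.09, -0.47 and -0.10 and Perp by -0.18, -0.33 and -0.02 at day 0, day 14 and day 28. For these 3 genes that is less than their WT change since day 0.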

How the data were processed

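The authors deposited raw counts per gene for 21 libraries of stranded TruSeq mRNA, with the gene length in bases as another column of the deposited table. Per the submitters' processing notes, featureCounts was used on the mm10 genome and DESeq2 was also among the tools. The sources used here name neither the aligner nor the strand setting. All 55536 gene IDs matched GENCODE vM21, and every row names a gene.

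The filterByExpr rule (at least 10 counts in enough libraries, 15 in all) set the genes tested. With TMM scaling, two-sided quasi-likelihood F tests were run in edgeR 4.0.16 (R 4.3.3), with Benjamini-Hochberg adjustment over all genes and a prior count of 0.125. Comparisons of days and the contrasts of genotype by time used the 18 original libraries (18684 genes, residual df 12). For ATLD against WT all 21 libraries entered, with a term for the sequencing batch (18844 genes, residual df 14). The original WT libraries form 1 batch, and the ATLD and resequenced WT libraries the other. The batch term thus rests on 3 resequenced cultures, whose runs are not independent. The adjusted p of that term was under 0.1 for 0 members, and the share of all genes is not given here. Its lowest unadjusted p in the F test were 0.0073 for Trp53 and 0.011 for Bbc3. The term is the same at every day. The run differences of members with at least 50% GC, however, had medians of 0.38, 0.86 and 0.06 at day 0, day 14 and day 28.

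The members, the further gene lists and the tests were chosen with earlier results of these data known. The lists hold 24 p53 regulators and family members, 25 other p53 targets, 20 cell cycle genes, and markers of general, luminal and basal epithelium, fibroblasts, leukocytes, endothelium with adipocytes, and lung. Named with values are Trp53, Cdkn1a and Mdm2 throughout, the up to 8 called members with the largest change in a comparison, those called at all 3 days or in both changes of a genotype, and up to 4 called genes of each further list. A gene so named is also given in other groups, and every remaining member is given by its call. The pipeline was also run on simulated data, and the outcome is not given here. That simulation had the same spread for every gene, a batch difference equal at all days and no GC trend. It therefore cannot speak to the libraries poor in GC-rich genes. Alternatives were DESeq2 1.42.0, no filter, median-of-ratios scaling, the 9 libraries of a genotype alone, leaving out each library, a block for the replicate number, a GC offset (spline with 6 degrees of freedom) alone and with that block, resequenced in place of original runs, the second batch alone, no batch term, and voom in limma 3.58.1 with a random block for the culture. A fit without the 3 libraries poor in GC-rich genes was added after the data were seen. The SE of a log2 fold change is its size divided by the square root of the quasi-likelihood F statistic.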

Additional observations from a re-analysis of the deposited data

Results flagged for a closer look

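The change since day 0 differed between the genotypes for 8 members, by a test of the difference itself in edgeR (ATLD change minus WT change, log2 ± SE). The share called was 19.4% of the 31 to day 14 and 22.6% to day 28, against 21.3% and 27.5% of all genes. Members were thus called no more often than genes at large. To day 14 the difference was -1.41 ± 0.16 for Cdkn1a, -0.43 ± 0.13 for Plk2, -2.52 ± 0.22 for Pmaip1, -0.75 ± 0.21 for Apaf1, -1.63 ± 0.14 for Perp and 0.70 ± 0.19 for Fas. To day 28 it was -0.58 ± 0.19 for Ccng1, -1.07 ± 0.16 for Cdkn1a, -3.27 ± 0.23 for Pmaip1, -1.05 ± 0.21 for Apaf1, -1.72 ± 0.14 for Perp, 0.93 ± 0.19 for Fas and -0.87 ± 0.28 for Ak1.

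For Cdkn1a, Pmaip1, Perp and Fas the difference was called to both days under all 20 alternatives, among them a GC offset and a fit without the 3 WT libraries poor in GC-rich genes. Cdkn1a ranged from -1.59 to -1.29 to day 14 over these alternatives, Pmaip1 from -2.68 to -2.28, Perp from -1.74 to -1.37 and Fas from 0.54 to 1.14. The call of Apaf1 to day 14 was lost without those 3 libraries (-0.51) and without ATLD day 14 replicate 2, and that to day 28 was kept under all 20. Plk2 was called under 14 of 20, Ccng1 under 14 of 20 and Ak1 under 12 of 20. ATLD and the original WT libraries were sequenced in separate batches. A difference between batches cancels in these contrasts only where it is the same at every day. Between the runs of WT replicate 1, members with at least 50% GC differed by medians of 0.38, 0.86 and 0.06 at day 0, day 14 and day 28.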

How the results depend on the processing

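Of 1409 alternative values of calls covered by the naming rule, 1298 kept their call and 111 kept their direction but not the call. That rule favours the largest changes. Calls outside it, such as those of Ccng1 and Plk2 for WT day 14 against day 0, were not counted. Among the calls counted, those lost under most alternatives were that of Ak1 at ATLD day 14 against day 0 (kept under 6 of 13), those of Ercc5 and Tnfrsf10b at ATLD day 28 against day 14 (5 of 13 each), and that of Rrm2b at WT day 28 against day 0 (5 of 15). The cause was not tested.

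With the GC offset, the number of members called was 7 for ATLD day 14 against day 0 (3 higher, 4 lower), 15 for ATLD day 28 against day 0 (6 higher, 9 lower), 1 for WT day 28 against day 14, 11 (3 higher, 8 lower) for the contrast of genotype by time at day 14 and 12 (3 higher, 9 lower) at day 28, and 23 (19 higher, 4 lower) for ATLD against WT at day 0. DESeq2 called 1 member in WT day 28 against day 14. Leaving out 1 library gave 0 to 15 members in WT day 28 against day 14, 3 to 5 in ATLD day 28 against day 14, 5 to 8 in WT day 28 against day 0, 7 to 15 in WT day 14 against day 0 and 5 to 12 in the contrast at day 14. The share of all genes called under each of these settings is not given here.

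Libraries of the same replicate number did not deviate together: their correlation was over 0.1 in 11 of 45 pairs (-0.70 to 0.32), and 11 pairs were best with their own number. The replicate block called 3 members in ATLD day 28 against day 14, and with the GC offset the block called 1 in WT day 28 against day 14, 10 in the contrast at day 14 and 23 in ATLD against WT at day 0.

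The values that turned sign were uncalled ones of Trp53, Mdm2 and Cdkn1a, within 0.10 of 0 except those of Trp53 for WT day 14 against day 0 (-0.23) and for the contrast at day 14 (0.20). With the GC offset, Trp53 was at -0.0023 for WT day 28 against day 0 and -0.022 for ATLD day 28 against day 14, and Mdm2 was at 0.020 and 0.048 there and at 0.12 for ATLD against WT at day 0. Cdkn1a at ATLD day 28 against WT was 0.13 with the GC offset, 0.14 with the block as well, 0.083 with no batch term and 0.0054 in the second batch alone. With the block and the GC offset, Trp53 was at -0.0017 and -0.016, and Mdm2 at 0.020, 0.047 and 0.11, for those 3 comparisons in that order. The block alone gave Trp53 0.0059 for ATLD day 28 against day 0. The WT libraries alone gave Mdm2 a value of -0.00810 at day 14. With resequenced runs, WT day 28 against day 0 was -0.030 for Trp53 and 0.0022 for Mdm2, and the contrast at day 28 was 0.031 for Trp53. With no batch term Mdm2 was at -0.057 and -0.020 for ATLD against WT at day 14 and day 28, and it was 0.016 at day 0 in the second batch alone. Without the 3 libraries poor in GC-rich genes, Trp53 was at 0.071 and Mdm2 at -0.055 for WT day 14 against day 0, and Trp53 at -0.083 for the contrast at day 14.

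Leaving out 1 library, Trp53 ranged over -0.12 to 0.078, -0.091 to 0.11 and -0.057 to 0.12 for ATLD day 14 against day 0, day 28 against day 0 and day 28 against day 14. It ranged over -0.0708 to 0.15 for WT day 28 against day 0 and -0.15 to 0.084 for the contrast at day 28. Mdm2 ranged over -0.12 to 0.037 for ATLD day 28 against day 14 and -0.0717 to 0.0043 for ATLD against WT at day 0, and Cdkn1a over -0.12 to 0.016 for ATLD against WT at day 28.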
